A study of Mus musculus with 3 samples.

Results

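The genes described here are 8 genes of calcium-binding proteins that mark neurons of the olfactory bulb (OB): Calb1, Calb2, Pvalb, Necab1, Necab2, Hpca, Hpcal1 and Vsnl1. They were listed by name from the 31055 genes of the count tables by a rule that uses no level, though with earlier results of these data known, and all 8 were measured in all 3 libraries. The samples were nuclei of the OB of 3 adult male C57Bl/6 mice, 7 weeks old, which formed 1 group with 1 library per mouse. Each mouse had been injected with rAAV-retro-CAG-H2B-GFP, a virus taken up by axon terminals and carried back to the cell body, in the anterior olfactory nucleus and the piriform cortex, which receive axons from the OB. The virus carries a green fluorescent histone behind CAG, a promoter active in most cell types, so that any infected cell can be labelled and GFP alone does not mark a projection neuron. GFP-positive nuclei were sorted and sequenced one by one in droplets (10x Genomics 3′ chemistry). There was no second treatment or genotype, so cell types were compared, with each mouse as 1 replicate within a cell type.

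Calcium that enters a neuron through its channels is bound by proteins with EF-hands, short helix-loop-helix folds whose loop holds the ion. Calbindin, calretinin and parvalbumin (Calb1, Calb2 and Pvalb) are mobile buffers that shape the size and decay of a calcium signal, and antibodies against them have long been used to tell interneurons apart, in the OB chiefly the periglomerular cells, the granule cells and the interneurons of the external plexiform layer. Necab1 and Necab2 are cytoplasmic proteins with EF-hands at their N-terminus. Hippocalcin, its close relative hippocalcin-like 1 and visinin-like 1 (Hpca, Hpcal1 and Vsnl1) are neuronal calcium sensors, which bind calcium and then move to membranes by a fatty acid chain at their N-terminus.

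Stretches of coding sequence are shown for the neuronal calcium sensors and for the Necab genes, which are close relatives whose reads have to be told apart by the bases that differ. Each is the 60-base window in which the family members are most alike, found by a search over their coding sequences in GENCODE M21 (GRCm38), and capitals mark the positions at which the members of a family differ. Each window holds the loop of an EF-hand. The assay counts RNA from its 3′ end, so these windows are not the sequences that were counted. In the sensors, Hpcal1 was identical to Hpca at 58 of 60 positions and Vsnl1 at 51 of 60, with windows at chr4:129118484-129118543 (Hpca, minus strand, exon 2 of 4), chr12:17786369-17786428 (Hpcal1, plus strand, exon 2 of 4) and chr12:11332121-11332180 (Vsnl1, minus strand, exon 3 of 4).
Hpca: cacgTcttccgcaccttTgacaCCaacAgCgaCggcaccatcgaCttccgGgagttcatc
Hpcal1: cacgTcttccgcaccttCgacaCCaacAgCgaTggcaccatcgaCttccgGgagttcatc
Vsnl1: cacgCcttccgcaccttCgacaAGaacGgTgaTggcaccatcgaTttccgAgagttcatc
Necab2 was identical to Necab1 at 45 of 60 positions. Both windows start in exon 1 of 13 and end in exon 3, where the longest pieces lie at chr4:15111274-15111302 in Necab1 (minus strand) and at chr8:119452082-119452110 in Necab2 (plus strand).
Necab1: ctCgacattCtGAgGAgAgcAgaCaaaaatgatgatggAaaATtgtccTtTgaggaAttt
Necab2: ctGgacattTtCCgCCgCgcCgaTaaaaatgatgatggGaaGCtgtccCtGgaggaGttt

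Over the whole coding sequence, identity was 86.0% between Hpca and Hpcal1, 72.7% between Hpca and Vsnl1, 73.7% between Hpcal1 and Vsnl1, 65.9% between Calb1 and Calb2, and 61.2% between Necab1 and Necab2. Of the 31-base words in the transcripts of Hpcal1, 19.7% also occurred in another gene, most often in Gm20336 (5.59%), the highest share of the 8. Whether these words lie where the reads fall was not tested. The share was 1.41% for Hpca and under 1% for the other 6. Necab1 (chr4:14952245-15149794, minus strand) overlaps 2 antisense genes, Gm11837 and Gm11844, and Hpca (chr4:129111570-129122036, minus strand) overlaps the end of Tmem54, which lies on the other strand. Whether the counting used strand is not given in the sources used here, so these 2 genes and their partners may share reads. Calb1 lies at chr4:15881264-15908064 (plus strand), Calb2 at chr8:110137502-110168210 (minus), Pvalb at chr15:78191114-78206400 (minus), Necab2 at chr8:119446719-119472640 (plus), Hpcal1 at chr12:17690856-17791933 (plus) and Vsnl1 at chr12:11325242-11436613 (minus), all of them protein-coding genes.

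Mice 1, 2 and 3 gave 5845, 21105 and 4753 nuclei with 58526996, 213891496 and 62929479 UMIs (unique molecular identifiers, by which captured RNA molecules are counted), and a median of 7940, 8420 and 10568 UMIs per nucleus. The authors had placed the 31703 nuclei in 22 clusters and the 7504 nuclei of 5 projection-neuron-like clusters in 10 subclusters, without names in the deposited table. Names ending in "-like" were given here from marker genes, with the 8 genes kept out of all marker lists. Inhibitory-like nuclei, including dopaminergic periglomerular-like cluster 6, formed 10 clusters with 21236 nuclei (67.0%), 6 clusters were glia-like or vascular-like, and cluster 21, with 9 nuclei in mouse 1, was neither named nor ranked. Among the subclusters, 7 carried markers of types that the study calls mitral (M1, M2, M3), tufted (T1) and external tufted (ET1, ET2, ET4), with 6346 nuclei. These lists were chosen by the study on these samples. Subcluster 2 carried 6 of 7 inhibitory markers beside those of projection neurons at a median of 20122 UMIs per nucleus, and is given by its number. M1-like nuclei numbered 14 in mouse 1, against 465 and 207 in mice 2 and 3. Of all nuclei, 164 had a barcode that also occurred in another mouse, and leaving them out changed none of the calls given here.

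The 8 genes gave 2030 (Calb1), 63438 (Calb2), 901 (Pvalb), 30223 (Necab1), 5416 (Necab2), 4517 (Hpca), 1206 (Hpcal1) and 76622 UMIs (Vsnl1) in all nuclei together, so that levels of Pvalb and Hpcal1 rest on the fewest molecules. A level is the UMIs of a gene per 1000000 UMIs (CPM) of all nuclei of a mouse in a cluster, and values are given for mice 1, 2 and 3 in this order, with the mean ± SD over the 3 mice. All 8 genes differed between the 22 clusters in edgeR's quasi-likelihood F test at an adjusted p under 0.05, with F from 5.23 for Hpca (adjusted p = 6.78e-07) to 40.6 for Hpcal1 (adjusted p = 2.07e-25). So did 85.3% of the 17028 genes tested, and a call by itself therefore sets no gene apart. The clusters had been formed on the same counts, so these p-values, and those between subclusters, describe the clusters and do not test whether they exist. What distinguished the genes was where each was high, and no cluster led more than 2 of them.

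**Figure D1:**
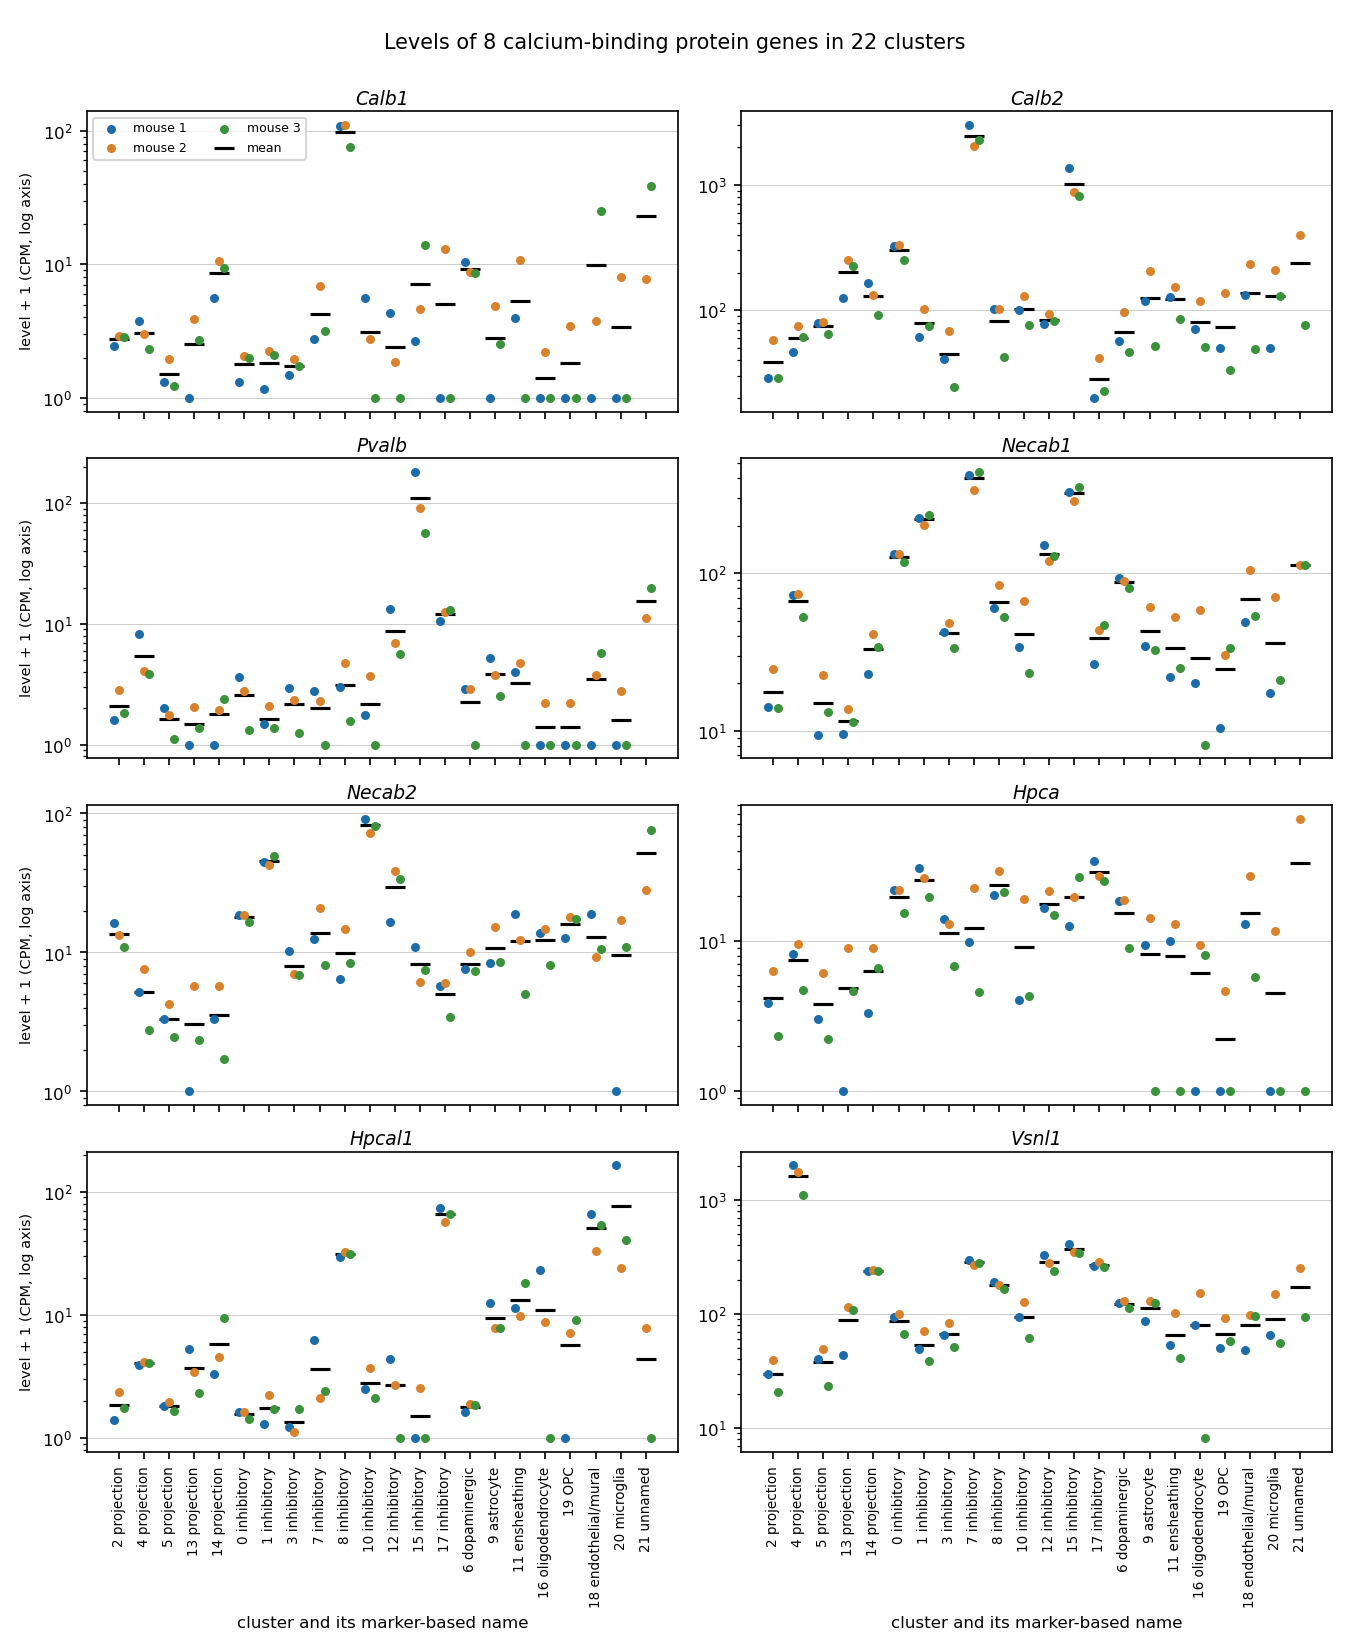
Level of each gene per mouse (coloured points) and mean of the mice (bar) in the 22 clusters, on a log axis of CPM + 1. Calb1 stands out in cluster 8, Pvalb in cluster 15, Necab2 in cluster 10 and Vsnl1 in cluster 4, while Hpca is spread over the inhibitory-like clusters with overlapping ranges.

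Calb1, the gene of the buffer calbindin, was high in 1 inhibitory-like cluster. Its level in cluster 8 was 108, 109.7 and 74.7 CPM (97.6 ± 19.8 CPM), 11 times that of the next cluster in order, and that cluster alone held 65.7% of all Calb1 UMIs. Each mouse of cluster 8 lay above each mouse of all other ranked clusters. The second place of vascular-like cluster 18 rested on 7 UMIs, with 0, 2.76 and 23.9 CPM. Dopaminergic periglomerular-like cluster 6 followed with 9.42, 7.72 and 7.64 CPM, and overlapped with projection-neuron-like cluster 14, which had 4.63, 9.64 and 8.47 CPM. All remaining clusters had means of at most 6.08 CPM, down to 0.401 CPM in oligodendrocyte-like cluster 16, and neighbours among them overlapped. The mean over nuclei of each nucleus's own CPM was 155 CPM in cluster 8, above that of the summed counts.

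Calb2, which encodes the buffer calretinin, was highest in cluster 7, an inhibitory-like cluster that also carried 5 of 5 markers of immature neurons. Its level there was 3007, 2046 and 2287 CPM (2446 ± 500.0 CPM). It was followed by inhibitory-like cluster 15, with 1372, 883 and 816 CPM (1024 ± 304 CPM), and by cluster 0, the most numerous, with 322, 329.9 and 251 CPM (301 ± 43.5 CPM). These 3 clusters stood in the same order in each mouse without overlap, and cluster 0 also lay above the next. From there on neighbours overlapped, starting with projection-neuron-like cluster 13 at 124, 249.6 and 226 CPM. The 6 glia-like and vascular-like clusters had means of 72.6 to 137 CPM, within which 6 further neuronal clusters lay too. Among the 5 neuronal clusters below them, the lowest levels were those of projection-neuron-like cluster 2 (28.0, 56.8 and 28.0 CPM) and inhibitory-like cluster 17 (19.1, 40.8 and 21.7 CPM).

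Pvalb, the gene of the fast buffer parvalbumin, gave the fewest UMIs of the 8. It was highest in inhibitory-like cluster 15, with 181, 89.5 and 55.1 CPM (108 ± 65.0 CPM), which held 33.2% of its UMIs in 1 of the smaller clusters of 301 nuclei. Mouse 1 lay well above the others there, and without it the mean was 72.3 CPM. All 3 mice nevertheless lay above all mice of the next cluster, inhibitory-like cluster 17, at 9.53, 11.7 and 12.04 CPM. Cluster 12 (12.3, 6.01 and 4.65 CPM) and projection-neuron-like cluster 4 (7.17, 3.10 and 2.86 CPM) overlapped with their neighbours, and glia-like and vascular-like clusters had 0.401 to 2.84 CPM on average. Cluster 15 was thus the only cluster in the 2 highest places of Calb2, Pvalb, Necab1 and Vsnl1 at once.

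Necab1 was detected in all inhibitory-like clusters and peaked in the same 2 clusters as Calb2. It measured 419.7, 336 and 439 CPM in cluster 7 (398 ± 55.0 CPM) and 329, 286 and 353 CPM in cluster 15 (323 ± 33.9 CPM), and the ranges of these 2 clusters overlapped, with cluster 7 the higher in 3 of 3 mice. Cluster 1 followed without overlap on either side, with 222, 202 and 233 CPM (219 ± 15.9 CPM). Clusters 12 (149, 119 and 127 CPM) and 0 (131, 131 and 116 CPM) overlapped with each other and lay above dopaminergic periglomerular-like cluster 6 (86.7 ± 6.62 CPM). At the other end, projection-neuron-like cluster 13 had 8.53, 12.8 and 10.4 CPM, below the means of all glia-like and vascular-like clusters, which were 23.8 to 67.9 CPM.

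Necab2 differed from its relative in place. Its highest level was in inhibitory-like cluster 10, with 91.0, 71.9 and 80.6 CPM (81.1 ± 9.58 CPM), where Necab1 had 32.9, 65.4 and 22.1 CPM. Cluster 1 was second in Necab2 with 43.9, 41.6 and 48.2 CPM (44.6 ± 3.38 CPM), and neither cluster overlapped with the next. Clusters 12 (15.7, 37.3 and 32.6 CPM) and 0 (17.0 ± 1.14 CPM) followed. In cluster 7, which led Necab1, Necab2 measured 11.5, 19.7 and 7.16 CPM and overlapped with glia-like clusters, whose means, vascular-like cluster 18 included, were 8.65 to 15.1 CPM. The lowest mean was again that of projection-neuron-like cluster 13, at 2.04 CPM.

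Hpca, which encodes the sensor hippocalcin, had the flattest pattern. The order began with inhibitory-like clusters 17 (33.4, 26.2 and 24.1 CPM), 1 (29.7, 25.5 and 18.5 CPM), 8 (19.4, 28.1 and 20.3 CPM), 15 (11.6, 18.6 and 25.9 CPM) and 0 (20.7, 20.9 and 14.4 CPM). The ranges over the mice overlapped between all neighbours in the order of Hpca, although within each mouse cluster 17 was above cluster 1 in 3 of 3 mice. The 5 projection-neuron-like clusters had means of 2.81 to 6.47 CPM, within the 1.22 to 14.3 CPM of the glia-like and vascular-like clusters.

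Hpcal1, the hippocalcin-like sensor, was the only gene of the 8 whose highest mean fell in a non-neuronal cluster. Microglia-like cluster 20 had 162, 23.1 and 39.9 CPM, a mean of 75.1 ± 76.1 CPM from 31 UMIs that rests on mouse 1, since without it the mean was 31.5 CPM. With nuclei of at least 1500 genes only, the mean was 24.9 CPM, below that of cluster 17. Inhibitory-like cluster 17 had 73.1, 55.4 and 65.0 CPM (64.5 ± 8.86 CPM) from 206 UMIs with little spread. Vascular-like cluster 18 had 65.5, 31.7 and 52.6 CPM and overlapped with it. Cluster 8, which led Calb1, was apart from its neighbours on both sides, at 28.3, 31.4 and 30.3 CPM (30 ± 1.55 CPM). In all other neuronal clusters the mean was at most 4.77 CPM, down to 0.368 CPM in inhibitory-like cluster 3, whereas the glia-like and vascular-like clusters had 4.76 CPM or more.

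Vsnl1, the gene of the sensor visinin-like 1, was the only one led by a projection neuron cluster. Its level in cluster 4 was 2014, 1746 and 1112 CPM (1624 ± 463 CPM), and 61.4% of all Vsnl1 UMIs were there. Inhibitory-like cluster 15 was second with 413, 348 and 343 CPM (368 ± 39.2 CPM), and neither overlapped with the next. Clusters 7, 12 and 17 followed with means of 284, 283 and 269 CPM and overlapped, then projection-neuron-like cluster 14 with 237, 244 and 237 CPM and inhibitory-like cluster 8 with 189.7, 177 and 166 CPM, neither of which overlapped with its neighbours in the order. The glia-like and vascular-like clusters had means of 64.8 to 113 CPM. The lowest level was that of another projection-neuron-like cluster, cluster 2, with 29.0, 38.4 and 19.7 CPM, so that the highest and the lowest level of Vsnl1 were both found among projection neurons.

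Within the projection neurons, the question was which mitral-like and tufted-like types carry these genes. All 8 differed between the subclusters (edgeR F test, adjusted p under 0.05), as did 61.3% of 15611 genes. F was highest for Vsnl1 (62.3, adjusted p = 2.26e-15) and Necab1 (46.3, adjusted p = 8.39e-14) and lowest for Hpca (4.22, adjusted p = 0.00295), whose call was lost without mouse 1 (F = 2.17, adjusted p = 0.134). Each of the 7 types was then set against the mean of the other 6, and a gene was called at an adjusted p under 0.05 and a log2 fold change beyond 1 in either direction. Each type is also part of the mean with which the others were compared, so the comparisons share their libraries.

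**Figure D2:**
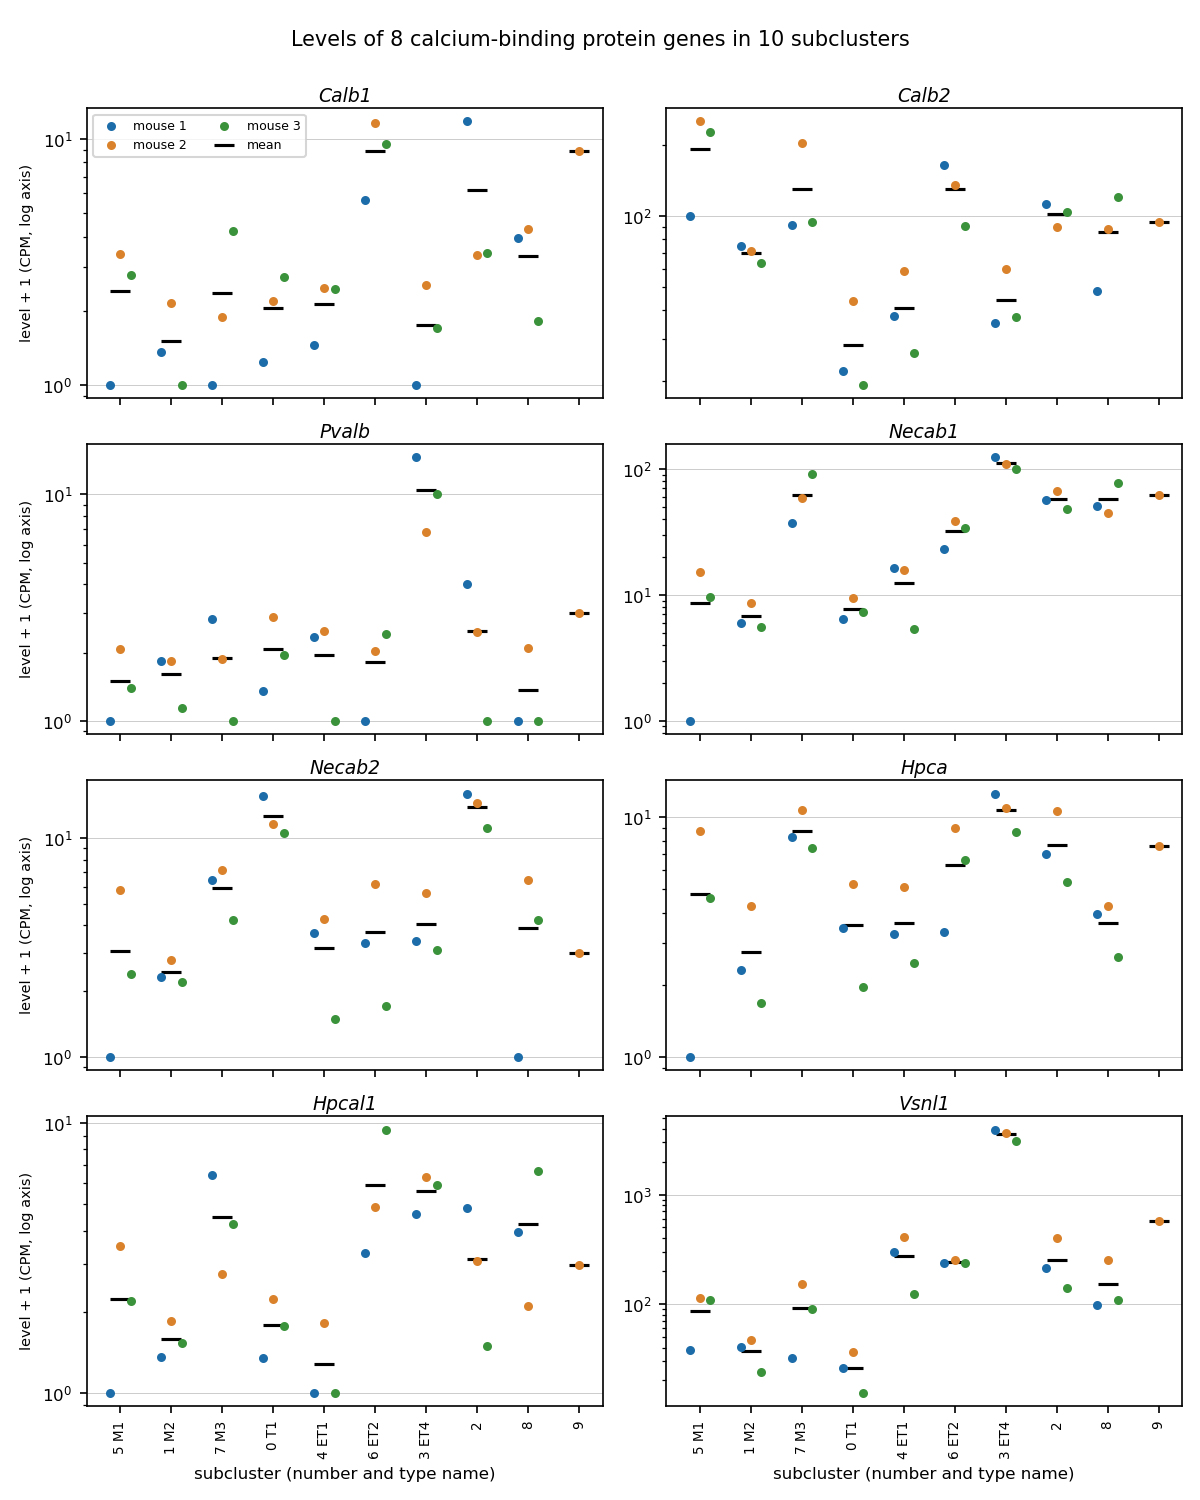
Level of each gene per mouse (coloured points) and mean of the mice (bar) in the 10 subclusters of projection-neuron-like nuclei, on a log axis of CPM + 1. Vsnl1, Necab1 and Pvalb are highest in ET4-like subcluster 3, Calb1 in ET2-like subcluster 6 among the named types, and Calb2 in M1-like subcluster 5. Subcluster 9 had enough nuclei in mouse 2 only.

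ET4-like nuclei were set apart by Vsnl1 more than by any other of the 8 genes. Its level was 3911, 3667 and 3056 CPM (3545 ± 441 CPM), 12.8 times that of the next subcluster, and 67.5% of the Vsnl1 UMIs of all subclusters were in this one. The next named types were ET1-like (297, 408 and 123 CPM) and ET2-like nuclei (237, 251 and 237 CPM), far below ET4-like nuclei in all mice. The log2 fold change of ET4-like nuclei against the other types was 5.15 ± 0.21 (SE, edgeR adjusted p = 2.61e-16). ET4-like nuclei are in the mean against which each other type was set, which lowers the Vsnl1 values of those types. Their values without ET4-like nuclei are not given here. The 883 ET4-like nuclei all belonged to cluster 4, and the rest of that cluster was mostly ET1-like (678 nuclei) and subcluster 2 (322 nuclei).

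ET4-like nuclei were also called higher in Necab1, Hpcal1 and Hpca, and no member was called lower. Pvalb was called higher too, which made 5 of 8, but it passed the filter on low counts only through this type and adds nothing to the count. Of 14696 genes, 18.0% were called (8.72% higher and 9.32% lower). The genes called were 1281 higher and 1370 lower, and with library size in place of TMM scaling 1607 and 1168. Necab1 measured 122, 108 and 99.2 CPM there (109.9 ± 11.7 CPM), above all mice of the next subcluster, and its log2 fold change was 2.75 ± 0.18 (SE, edgeR adjusted p = 2.76e-12). Pvalb had 13.6, 5.82 and 9.08 CPM (9.49 ± 3.89 CPM) from 81 UMIs, against means of at most 1.49 CPM in all other ranked subclusters, and its log2 fold change was 3.19 ± 0.42 (SE, edgeR adjusted p = 7.64e-07). Without ET4-like nuclei Pvalb did not pass the filter on low counts over the types, so it was tested only because of its level in this type, and its call is given as a description. The levels of Necab1 and Pvalb in this type were below those of inhibitory-like cluster 15. The sensor gene Hpcal1 measured 3.59, 5.30 and 4.89 CPM and had a log2 fold change of 1.63 ± 0.41 (SE, edgeR adjusted p = 0.00211). Hpca measured 11.6, 9.92 and 7.68 CPM and had 1.19 ± 0.37 (SE, edgeR adjusted p = 0.011), which was not called without mouse 1 (0.98, adjusted p = 0.158). Both were at levels within or below those of glia-like clusters. Calb2 went the other way at -0.98 and missed the threshold of size, which it passed with the mouse as a block (-1.02, adjusted p = 6.3e-05) and under 5 other settings. The summed level of the 7 inhibitory markers was 331 CPM in ET4-like nuclei (219 to 504 in the mice), within the 147 to 678 CPM of the other 6 types. Of these markers, Gad2, which encodes an enzyme of GABA synthesis, had its highest level of the named types in ET4-like nuclei, at 101 CPM (85.9 to 113 CPM in the mice) against means of 17.0 to 55.9 CPM and no mouse above 80.5 CPM in the other types. Its part in these results was not tested.

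ET2-like nuclei were higher in Calb1 and Hpcal1, 2 of 8 where 13.8% of genes were called (7.64% higher and 6.18% lower). Calb1 measured 4.63, 10.6 and 8.47 CPM (7.89 ± 3.02 CPM) from 57 UMIs, above the means of the other types, which were at most 1.396 CPM, and its log2 fold change was 2.84 ± 0.49 (SE, edgeR adjusted p = 4.84e-05). That mean lay inside the 0.401 to 8.88 CPM of the glia-like and vascular-like clusters. Calb1 failed the filter on low counts without mouse 2. Whether it passes that filter without ET2-like nuclei was not tested, so its call is given as a description. Hpcal1 measured 2.31, 3.87 and 8.47 CPM from 29 UMIs, with a log2 fold change of 1.76 ± 0.46 (SE, edgeR adjusted p = 0.00487), and was not called without mouse 3 (1.10, adjusted p = 0.251). In ET2-like nuclei the 7 inhibitory markers summed to 678 CPM (260 to 1099) and the 6 astrocyte markers to 275 CPM (254 to 309), the highest of the 7 types in both lists. In inhibitory-like clusters the first sum was 4366 CPM or more on average. The part of either in these 2 results was not tested.

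ET1-like nuclei were called higher in Vsnl1 and lower in Hpcal1, 2 of 8 against 8.61% of genes (5.17% higher and 3.44% lower). Both calls were fragile. Vsnl1 had a log2 fold change of 1.06 ± 0.26 (SE, edgeR adjusted p = 0.00315), close to the threshold of size, and fell under it with the mouse as a block (0.99, adjusted p = 0.000106) and without mouse 1 (0.95, adjusted p = 0.0597) or mouse 2 (0.89, adjusted p = 0.0398). Hpcal1 (-2.02 ± 0.66, adjusted p = 0.0323) rested on 5 UMIs in ET1-like nuclei, all of them in mouse 2, and was not called without mouse 1 (adjusted p = 0.121) or mouse 3 (adjusted p = 0.194). Calb2, at -0.91, was called lower only without mouse 2 (-1.06).

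M1-like nuclei were higher in Calb2, the 1 of 8 called where 11.9% of genes were (7.81% higher and 4.04% lower). Calb2 measured 99.0, 252 and 227 CPM (193 ± 82.1 CPM), mouse 1 with its 14 nuclei lying below the others and within the range of glia-like clusters. The log2 fold change was 1.81 ± 0.23 (SE, edgeR adjusted p = 5.89e-07). The level overlapped with those of ET2-like (164, 134 and 90.3 CPM) and M3-like nuclei (90.8, 205 and 93.4 CPM), for which Calb2 was not called (0.83 and 0.79), although ET2-like nuclei passed without mouse 2 (1.12, adjusted p = 0.000619).

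M2-like nuclei were low in most of these genes, with 5 of 8 called lower and none higher, where 12.1% of genes were called (6.83% higher and 5.29% lower). Of those, 1004 genes were higher and 777 lower, and with library size in place of TMM scaling 780 and 1142, where the 5 members and Calb1 (-1.66, adjusted p = 0.0377) were called lower. Vsnl1 measured 39.1, 46.1 and 23.0 CPM and its log2 fold change was -2.29 ± 0.33 (SE, edgeR adjusted p = 4.98e-06), while Necab1 measured 5.00, 7.67 and 4.55 CPM with -1.91 ± 0.25 (SE, edgeR adjusted p = 1.55e-06). Necab2 (1.31, 1.79 and 1.21 CPM) had -1.37 ± 0.39 (SE, edgeR adjusted p = 0.00682), Hpca (1.31, 3.26 and 0.670 CPM) -1.39 ± 0.42 (SE, edgeR adjusted p = 0.0107) and Hpcal1 (0.357, 0.840 and 0.536 CPM) -1.53 ± 0.50 (SE, edgeR adjusted p = 0.0173). These last 3 rested on 37, 47 and 15 UMIs, and Necab2 and Hpca were not called without mouse 1 (adjusted p = 0.0838 and 0.109), Necab2 also not without mouse 2 (-0.90, adjusted p = 0.208), and Hpcal1 not without any single mouse (adjusted p = 0.0776 to 0.99). Calb1, at -1.52 (adjusted p = 0.0597), was called with the mouse as a block (-1.35, adjusted p = 0.0412). Calb2 was the exception, with 74.0, 70.2 and 62.0 CPM and a log2 fold change of 0.01. M2-like nuclei were the deepest of the 7 types, with a median of 20781 UMIs, and had the lowest mean of the 7 inhibitory markers summed, at 147 CPM (81.5 to 245 CPM in the mice), whose part in these results was not tested.

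M3-like nuclei were higher in Necab1, the 1 of 8 called against 8.57% of genes (5.37% higher and 3.20% lower). The genes called were 789 higher and 470 lower, and with library size in place of TMM scaling 1278 and 263. The level of Necab1 was 36.3, 58.3 and 90.2 CPM and its log2 fold change 1.70 ± 0.26 (SE, edgeR adjusted p = 3.7e-05). Vsnl1, at -0.99 (adjusted p = 0.0382) against a mean that holds ET4-like nuclei, just missed the threshold of size. It was called lower with the mouse as a block (-1.03, adjusted p = 0.00386), against the same mean. At 5915 UMIs, the median depth of M3-like nuclei was the lowest of the 7 types. The 7 inhibitory markers summed to 447 CPM (243 to 697 CPM in the mice) there, the second highest mean of the 7 types, and the part of these 2 measures in the result was not tested.

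T1-like nuclei, the most numerous type, had 4 of 8 genes called, 1 higher and 3 lower, where 12.2% of genes were called (6.68% higher and 5.5% lower). The genes called were 982 higher and 808 lower, and with library size in place of TMM scaling 812 and 976. Necab2 was higher, at 14.6, 10.6 and 9.61 CPM (11.6 ± 2.64 CPM) against means of at most 4.95 CPM in the other types, and its log2 fold change was 2.07 ± 0.27 (SE, edgeR adjusted p = 8.98e-07). Its paralog Necab1 went the other way, with 5.37, 8.49 and 6.34 CPM and -1.66 ± 0.24 (SE, edgeR adjusted p = 3.87e-06). Vsnl1 (24.8, 35.3 and 14.4 CPM) had -2.94 ± 0.34 (SE, edgeR adjusted p = 1.57e-07) and Calb2 (20.9, 42.7 and 18.3 CPM) -1.55 ± 0.27 (SE, edgeR adjusted p = 6.01e-05). T1-like and ET4-like nuclei, both tufted, thus had the lowest and the highest mean of Vsnl1 among the named types. The 7 inhibitory markers summed to 161 CPM (95.4 to 261) in T1-like nuclei, the lowest after M2-like nuclei, and their part was not tested. The level of Necab2 in T1-like nuclei lay inside the 8.65 to 15.1 CPM of the glia-like and vascular-like clusters.

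**Figure D3:**
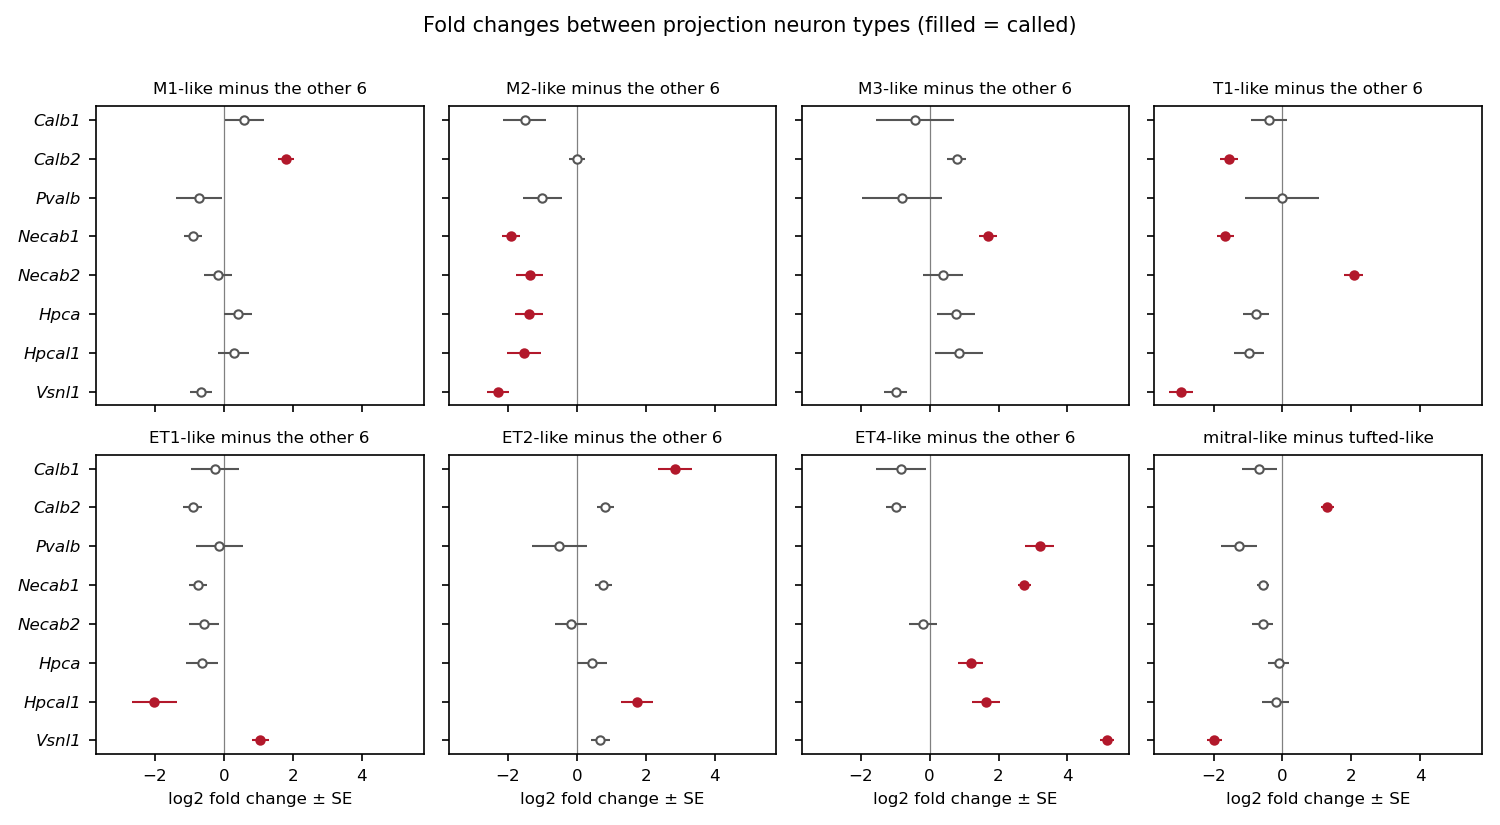
Log2 fold change (point) and SE (line) of each gene in each of the 7 projection neuron types against the other 6, and in mitral-like against tufted-like types. Filled red points were called (adjusted p under 0.05 and a change beyond 1 on the log2 scale). ET4-like nuclei have 5 called genes, all higher, of which Pvalb was tested only because of its level in this type. M2-like nuclei have 5, all lower.

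Over the 8 genes together, the median log2 fold change was 1.41 in ET4-like and -1.45 in M2-like nuclei, and it was -0.87 in T1-like, -0.61 in ET1-like, 0.06 in M1-like, 0.58 in M3-like and 0.72 in ET2-like nuclei. Over all genes tested the medians lay between -0.05 and 0.04. The medians of the 8 include Pvalb, which was tested only because of its level in ET4-like nuclei, where it had 3.19. Medians without Pvalb are not given here.

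Mitral-like types (3 types, 9 libraries) were then compared with tufted-like types (4 types, 12 libraries), which are the broad classes of bulb projection neuron. Calb2 was higher in mitral-like and Vsnl1 in tufted-like nuclei, 2 of 8 where 9.34% of genes were called (5.53% higher and 3.81% lower in mitral-like types). Calb2 ranged from 62.0 to 252 CPM in mitral-like libraries (median 93.4) and from 18.3 to 164 CPM in tufted-like ones (median 39.7), and the difference of mitral-like minus tufted-like was 1.30 ± 0.18 (SE, edgeR adjusted p = 3.03e-06) on the log2 scale. The ranges overlapped through ET2-like nuclei, the only tufted-like type within the mitral-like range of Calb2. Vsnl1 ranged from 23.0 to 153 CPM in mitral-like libraries (median 46.1) and from 14.4 to 3911 CPM in tufted-like ones (median 244), with a difference of -1.97 ± 0.22 (SE, edgeR adjusted p = 6.4e-08). That range held T1-like nuclei at its foot and ET4-like nuclei at its top, and without ET4-like nuclei the difference was -0.76 and no longer called (adjusted p = 0.0161), whereas Calb2 was called then too. Pvalb had -1.27 (adjusted p = 0.0683), was called with no filter on low counts (-1.26, adjusted p = 0.0494) and had no value without ET4-like nuclei, where it failed the filter. The other 5 genes had values between -0.67 and -0.11, none of them called, and 3 of these (Necab1, Hpca and Hpcal1) changed sign without ET4-like nuclei.

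Calcium-binding proteins are used as interneuron markers, which raises the question how far they separate the inhibitory neurons of the OB from its projection neurons. The nuclei of the 7 named types were summed per mouse and set against all inhibitory-like nuclei of the same mouse. In this comparison 6 of the 8 genes were lower in projection neurons and 1 was higher, where 29.3% of 18088 genes were called (13.9% lower and 15.4% higher). The median log2 fold change of the 8 was -1.84, against 0.01 over all genes.

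**Figure D4:**
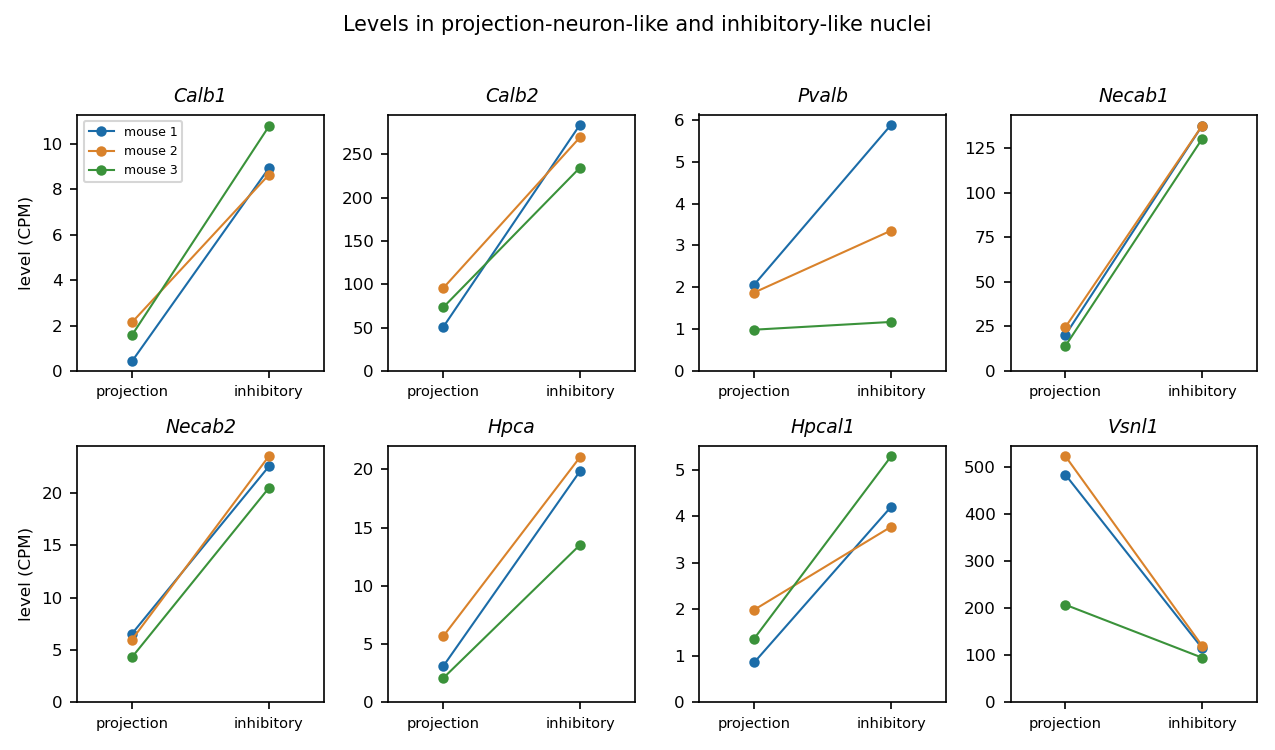
Level (CPM) of each gene in all nuclei of the 7 named projection neuron types and in all inhibitory-like nuclei, with 1 line per mouse. The lines rise towards inhibitory-like nuclei in all mice for 7 genes and fall in all mice for Vsnl1, and the vertical axes differ between genes.

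Necab1 was lower in projection neurons by the widest margin. Its level was 20.1, 24.5 and 14.0 CPM there and 138, 138 and 130.4 CPM in inhibitory-like nuclei, and its log2 fold change was -2.71 ± 0.19 (SE, edgeR adjusted p = 1.39e-05). Necab2 had 6.58, 6.01 and 4.33 CPM against 22.6, 23.5 and 20.5 CPM, which gave -1.91 ± 0.16 (SE, edgeR adjusted p = 3.42e-05). Hpca had 3.09, 5.66 and 2.08 CPM against 19.8, 21.04 and 13.5 CPM, which gave -2.21 ± 0.34 (SE, edgeR adjusted p = 0.000942). For these 3 genes all mice of one class lay below all mice of the other, and each was called whichever of ET4-like nuclei and clusters 7, 8 and 15 was left out.

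The 3 remaining genes that were lower depended more on 1 cluster. Calb1 measured 0.430, 2.14 and 1.58 CPM in projection neurons and 8.94, 8.65 and 10.8 CPM in inhibitory-like nuclei, with a log2 fold change of -2.60 ± 0.41 (SE, edgeR adjusted p = 0.000961). Without cluster 8 the value was -0.32 (adjusted p = 0.558), so that inhibitory-like nuclei outside that cluster did not differ detectably from projection neurons in Calb1. Hpcal1 measured 0.860, 1.99 and 1.37 CPM against 4.20, 3.77 and 5.29 CPM, with -1.51 ± 0.30 (SE, edgeR adjusted p = 0.00306), and -0.43 (adjusted p = 0.25) without the same cluster. Calb2 measured 50.5, 95.5 and 73.3 CPM against 284, 269.8 and 235 CPM, with -1.77 ± 0.22 (SE, edgeR adjusted p = 0.00027), and was called without cluster 7 as well (-1.11, adjusted p = 0.00535).

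Vsnl1 went the other way and Pvalb was not called. Vsnl1 measured 483, 522 and 207 CPM in projection neurons and 115, 119.7 and 94.8 CPM in inhibitory-like nuclei, with a log2 fold change of 1.95 ± 0.31 (SE, edgeR adjusted p = 0.00113). Without ET4-like nuclei its direction turned and the difference was no longer called (-0.31, adjusted p = 0.34). Pvalb measured 2.06, 1.87 and 0.985 CPM against 5.88, 3.35 and 1.17 CPM, with -0.996 ± 0.52 (SE, edgeR adjusted p = 0.133). It was called lower in projection neurons without ET4-like nuclei (-1.81, adjusted p = 0.0255) and without mouse 3 (-1.14, adjusted p = 0.0211), and had 0.04 (adjusted p = 0.942) without cluster 15.

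How many nuclei carry a gene was read after each nucleus had been thinned to 3000 UMIs, with 348, 710 and 96 shallower nuclei of mice 1, 2 and 3 left out, and the share before thinning is given in brackets. Shares are over the nuclei of all mice together unless mice are named. Vsnl1 was found in 98.4% (99.9%) of ET4-like nuclei, with a median of 11 and a highest value of 33 UMIs per nucleus. In astrocyte-like nuclei, at a median depth of 5211 UMIs against 10419 before thinning, the share was 17.9% (28.0%), and over the 6 glia-like and vascular-like clusters it was 17.9% to 23.1%. This range was exceeded in ET2-like (47.4%), ET1-like (40.9%) and M1-like nuclei (27.0%) and not in M3-like (15.9%), M2-like (9.16%) or T1-like nuclei (7.32%). The shares of the last 3 types were below those of all glia-like and vascular-like clusters, and whether they express Vsnl1 was not tested.

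Calb2 was found in 81.7% (86.9%) of the nuclei of cluster 7 and 80.5% (89.7%) of cluster 15. In cluster 7 the numbers were spread widely, with a median of 3 and a highest value of 84 UMIs per nucleus, and a variance 17.9 times the mean. The share with Calb2 was 18.7% to 31.9% in the glia-like and vascular-like clusters (23.3%, or 35.8% before thinning, in astrocyte-like nuclei), and M1-like nuclei lay above it with 47.0% (89.1%). Cluster 0, at 30.1% (44.2%), lay inside that range although its CPM did not overlap with that of the next cluster in order. M3-like nuclei, at 29.1%, also lay inside it, and ET2-like (18.3%), M2-like (17.2%), ET4-like (14.0%), ET1-like (12.7%) and T1-like nuclei (10.2%) lay below it. In M1-like nuclei the share was above that range in mice 2 and 3 (48.3% and 46.3%) and not in mouse 1 (14.3% of 14 nuclei). Since several types lay below the glia-like range, that range is no measured floor for projection neurons, and Calb2 in the types inside or below it was not tested against one.

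**Figure D5:**
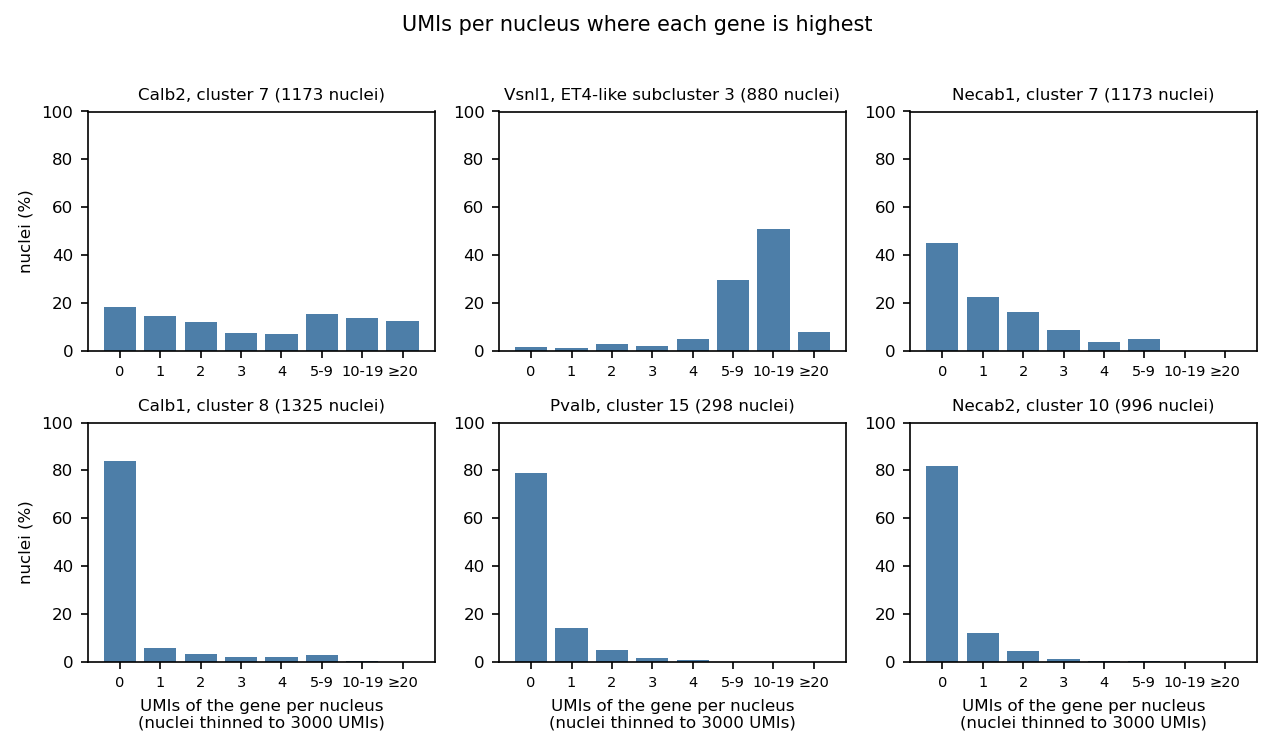
Percent of nuclei (bars) with 0 to 20 or more UMIs of a gene per nucleus, after thinning to 3000 UMIs, in a group with the highest level of that gene among the clusters or the subclusters. Most ET4-like nuclei hold 5 or more Vsnl1 UMIs, whereas 83.8% of nuclei of cluster 8 hold no Calb1.

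Calb1 in cluster 8 had a different form. Only 16.2% (19.6%) of its nuclei held a UMI, or 17.7%, 15.7% and 16.3% in the 3 mice, and 1111 of 1325 held none. The nuclei that did held up to 12, and the variance was 4.18 times the mean. The share in the glia-like and vascular-like clusters was 0.383% to 1.399%. At 1111 of 1325, the cluster that leads Calb1 was made mostly of nuclei without a detected Calb1 molecule at this depth. In ET2-like nuclei the share was 1.72%, from 8 nuclei.

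Pvalb was found in 21.1% (36.9%) of the nuclei of cluster 15, or 33.8%, 19% and 9.09% in mice 1, 2 and 3, the same order of the mice as in its CPM. The share in the glia-like and vascular-like clusters was at most 0.821%, and ET4-like nuclei had 2.05% (5.66%). Necab1 was found in 56.0% (80.7%) of cluster 15, 55.2% (63.1%) of cluster 7, 34.5% of cluster 1 and 24.1% (50.6%) of ET4-like nuclei, above the 3.33% to 14.0% of the glia-like and vascular-like clusters. Inside that range lay M3-like (11.6%) and ET2-like nuclei (8.41%), and below it T1-like (1.79%) and M2-like nuclei (1.66%). Necab2 reached 18.0% (29.2%) in cluster 10 and 11.3% in cluster 1, whereas T1-like nuclei, with 2.88% (11.6%), lay within the 2.30% to 3.50% of the glia-like and vascular-like clusters.

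Both hippocalcin genes were sparse. Hpca was found in 9.47% (36.3%) of cluster 17 and 7.08% of cluster 1, beside up to 4.90% in the glia-like and vascular-like clusters and up to 3.49% in the named projection neuron types. Hpcal1 was found in 17.4% (50%) of cluster 17 and 9.28% (18.1%) of cluster 8. Microglia-like (12.1% of 91 nuclei) and vascular-like nuclei (10.5%) had more of it than the other glia-like clusters, which had 1.33% to 3.04%, and all named projection neuron types had at most 1.72%.

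Within a cluster, detection of 1 gene could be set beside that of another in the same thinned nuclei, which is a description of nuclei and not a test. In cluster 8, Hpca was detected in 17.3% of nuclei with a Calb1 UMI and in 4.86% of those without, and Hpcal1 in 18.7% against 7.47%, in the same direction in 3 of 3 mice for both. The same held for Necab1 (17.8% against 12.3%) and Vsnl1 (42.5% against 35.7%), both in 3 of 3 mice, while Calb2 did not differ much between them (21.5% against 20.5%). In cluster 7, Necab1 was detected in 58.4% of nuclei with a Calb2 UMI and 40.9% of those without, in 3 of 3 mice. Vsnl1 was detected less often in the nuclei of cluster 7 with a Necab1 UMI than in those without (43.3% against 53.4%, 3 of 3 mice). The opposite held in cluster 4 (92.0% against 67.9%, 3 of 3 mice), whose ET4-like nuclei carry both genes.

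Genes with a like pattern were sought by Pearson's r of log2(CPM + 1), mean of the mice, over the 22 clusters, among 16596 genes with at least 5 CPM in some cluster. Clusters share libraries and genes are not independent, so r is given as a description. The 3 genes most like Calb1 were Htr2c (r = 0.79), Esr2 (0.75) and Padi1 (0.74). For Calb2 they were Hydin (0.86), Gm11549 (0.83) and Gm42697 (0.81), and for Pvalb Gm36529 (0.82), Grsf1 (0.80) and Pi15 (0.78). Necab1 was most like Rpp25 (0.87), Gm11844 (0.87), which is the antisense gene inside it, and Araf (0.86), whereas Necab2 was most like Rap2a (0.81), Gm13889 (0.78) and Gucy2g (0.77). For Hpca the genes were Ccsap (0.85), Dlx1 (0.84) and Epha10 (0.84), for Hpcal1 Rxra (0.83), Arhgap18 (0.80) and Ets1 (0.79), and for Vsnl1 Flywch1 (0.74), Ankrd34b (0.73) and Rad51ap2 (0.72), the last of which lies 19465 bases from Vsnl1 on the other strand. Among the 8 genes themselves the highest values were 0.70 between Necab1 and Hpca and 0.60 between Calb2 and Necab1.

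Other EF-hand genes were followed as a list of 21 sensors and buffers, of which 19 passed the filter on low counts over the clusters and 17 over the types. All 19 differed between clusters, where 85.3% of all genes did, and 16 of 17 between subclusters, where 61.3% did. In projection neurons against inhibitory-like nuclei, 8 of 18 were lower and 4 higher, where 13.9% of all genes were lower and 15.4% higher, with a median of -0.37 on the log2 scale against 0.01 over all genes. The largest changes were those of Necab3, a further gene of the Necab family (-3.48 ± 0.35, adjusted p = 9.14e-05), Scgn, which encodes the sensor secretagogin (-3.40 ± 0.40, adjusted p = 0.000214), and Kcnip4, a partner of voltage-gated potassium channels (3.05 ± 0.20, adjusted p = 9.31e-06). Necab3 was thus lower in projection neurons like Necab1 and Necab2.

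Between projection neuron types, 3 to 7 of the 17 listed genes were called per type, beside 8.57% to 18.0% of all genes, and all those named below had an adjusted p of 0.0437 or less. In ET4-like nuclei Kcnip4 was higher by 3.40 on the log2 scale, while Kcnip3 and Kcnip1, of the same family of channel partners, were lower (-1.70 and -1.60), which made 2 higher and 3 lower with a median of 0.07. ET2-like nuclei had 4 higher and 3 lower, with Caln1, a calneuron gene, at 4.79, Kcnip1 at 4.22 and Kcnip4 at -4.44, changes beyond those of any of the 8 genes in that type. M3-like nuclei had 4 higher and 1 lower (Ncald, the gene of neurocalcin delta, at 1.32, Hpcal4 at 1.28 and Kcnip2 at 1.13). M1-like nuclei had 2 higher and 1 lower (Kcnip1 at 3.06, Cabp1 at -2.37 and Hpcal4 at 1.58). M2-like nuclei had 1 higher and 3 lower (Caln1 at -2.25, Kcnip1 at -1.97 and Cabp1 at 1.35), and the median over the list was -0.52. ET1-like nuclei had 2 higher and 3 lower (Kcnip3 at -2.26, Caln1 at -1.91 and Kcnip1 at -1.90), and T1-like nuclei 1 higher and 2 lower (Caln1 at -2.33, Kcnip4 at 1.45 and Hpcal4 at -1.31). In mitral-like against tufted-like types only Caln1 was called, at -1.06.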

How the data were processed

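The deposited tables hold raw UMI counts per gene and barcode, made by the authors on mm10 with Cell Ranger, version 3.0.2 in the headers of the files, without normalization. A further deposited table lists the authors' nuclei (at least 1000 genes), clusters and percent of mitochondrial UMIs. Whether intronic reads were counted is not given in the sources used here. The only step against doublets that the authors describe is a scatter gate during sorting, before the droplets were formed. No doublet caller was run here. Counts were summed per mouse and group of at least 10 nuclei, filtered with filterByExpr, scaled by TMM and tested with edgeR 4.0.16 (R 4.3.3, quasi-likelihood, Benjamini-Hochberg over all genes), checked on simulated counts. SE is the log2 fold change divided by the square root of F. A cluster was named from at least 3 markers with 25% (subclusters 50%) of their highest cluster's CPM. Libraries come from the same mice: deviations of projection and inhibitory sums correlated with r of 0.301, 0.490 and 0.630 over 8071 genes, so a fit with the mouse as block was tried beside library size, DESeq2 1.42.0, other filters and leaving out each mouse. Members, lists and rules were chosen with earlier results of these data known: 21 EF-hand genes named by their 3 largest called changes, and the 3 genes most alike over clusters. Leaving out shared barcodes, ET4-like nuclei or clusters 7, 8 and 15 was chosen after seeing the data. The coding windows of the calbindin family are not reported here.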

Additional observations from a re-analysis of the deposited data

Results flagged for a closer look

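The count tables hold 12720 barcodes that the authors' list of nuclei leaves out and that no comparison used, with 11276793 UMIs and a median of 785, 732 and 808 UMIs per barcode in mice 1, 2 and 3. All 8 genes were present there above the 0.266 CPM that a count of 0 allows, which is why they are listed. Vsnl1 measured 341 CPM (220.4, 433 and 154 CPM in mice 1, 2 and 3) and Calb2 499 CPM (186, 663 and 255 CPM). Necab1 measured 60.3 CPM, Hpca 49.9 CPM, Necab2 40.0 CPM, Pvalb 12.9 CPM, Calb1 9.84 CPM and Hpcal1 5.85 CPM. All 8 genes were highest in mouse 2, Hpca for example at 15.1, 68.2 and 22.9 CPM in mice 1, 2 and 3.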

How the results depend on the processing

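Of the 991 alternative values of single genes in tests, 930 kept their direction and their side of the threshold, 21 lost a call, 20 gained one and 20 changed sign, and the number of genes called stayed within 1.5 times in every comparison and alternative. Of those that changed sign, Vsnl1 in projection neurons against inhibitory-like nuclei (-0.31 without ET4-like nuclei) was the only one with a call on either side. The others were called neither before nor after. Without ET4-like nuclei they were Necab1 (0.17), Hpca (0.23) and Hpcal1 (0.25) in mitral-like against tufted-like types, and without cluster 15 Pvalb in projection neurons against inhibitory-like nuclei (0.044). Without the 5% of nuclei with most UMIs they were Hpcal1 in M1-like (-0.055), Calb2 in M2-like (-0.045) and Pvalb in T1-like nuclei (0.056). Calb2 in M2-like nuclei also came to -0.15 with library size and -0.020 with at least 30 nuclei per library, and Pvalb in T1-like nuclei to 0.021 with the replicate block, 0.038 with no filter and 0.033 with at least 1500 genes. Leaving out each mouse gave -0.48 to 0.064 for Pvalb in ET1-like, -0.32 to 0.0066 for Necab2 in ET4-like, -0.84 to 0.12 for Necab2 in M1-like, -0.15 to 0.34 for Calb2 in M2-like and -0.50 to 0.50 for Pvalb in T1-like nuclei, and -0.49 to 0.70 for Hpcal1 in mitral-like against tufted-like types. Members called in ET1-like nuclei (2) came to 1 with the mouse as a replicate block, 1 with library size in place of TMM, 1 with DESeq2 and 0 without the 5% of nuclei with most UMIs, and leaving out each mouse gave 0 to 2. Those in M3-like nuclei (1) came to 2 with the replicate block, with no filter on low counts, with at least 1500 genes per nucleus and with at least 30 nuclei per library, and leaving out each mouse gave 1 to 2. Leaving out each mouse gave 1 to 2 in ET2-like nuclei (2) and 2 to 4 in M2-like nuclei (5). Without ET4-like nuclei 1 member was called between mitral-like and tufted-like types (2). In each case the cause was not tested. The replicate block changed no other call than those given in the text. Calls of DESeq2 on the 8 genes differed further only for Calb2 in ET4-like nuclei (-1.004, adjusted p = 0.0137). Library size in place of TMM moved the median log2 fold change of all genes from 0.04 to -0.12 in M2-like, from -0.05 to 0.16 in M3-like, from 0.01 to 0.13 in ET4-like and from 0.01 to -0.12 in T1-like nuclei. Between the types, Calb1 without mouse 2 and Pvalb without ET4-like nuclei failed the filter on low counts and gave no value. The minimum of 30 nuclei does not apply to projection against inhibitory sums, which all hold more.

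Of 112 alternative levels, 111 stayed within 1 SD, the exception being Calb1 in cluster 8 as a mean over nuclei, but this SD is as large as the mean for Hpcal1 in cluster 20, which fell from 75.1 to 24.9 CPM in nuclei of at least 1500 genes. Few molecules limit Pvalb, Calb1 and Hpcal1, whose levels rest on as few as 2, 3 and 5 UMIs in single types. The mice were separate animals of 1 group. The p-values measure the spread between libraries of these 3 mice within a cell type, pooled over the cell types compared. The main fit had no term for the mouse, so libraries of the same mouse were treated as independent.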
